A study of Mus musculus with 1152 samples.

Results

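The 33 genes described here are 27 immediate early genes and 6 heat shock genes of the mouse, taken by name from a table of 46517 genes, and all 33 were found in it. RNA was measured in single cells of adult C57BL/6 mouse brain by SMART-seq2, a plate method that copies and amplifies whole transcripts of 1 cell per well. The submitters' labels name a pair of mouse lines as the source. One is Pdgfra-H2BGFP, whose green histone reporter marks nuclei where Pdgfra is active, a receptor gene used by fibroblasts and oligodendrocyte precursors. The other is Tagl-CREERT2;Ai14, spelled here as the submitters did, in which tamoxifen lets Cre turn on the red reporter of Ai14. Both lines, in animals of both sexes, went through the same steps: brains were cut up and digested with enzymes, pieces of vessel were caught on beads carrying an antibody to CD31, an endothelial surface protein, and fluorescent cells were sorted after another digestion. No label ties a well to a line, an animal or a treatment, so all 1152 wells were handled as 1 sample. No value below carries a test or a replicate error. Intervals on CPM cover the counting of reads and intervals on shares the counting of wells, in this 1 sample.

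Wells were named from their own transcripts. A well was given a cell type where at least 3 of 5 markers of that type reached 50 CPM (reads of a gene per 1000000 reads of the well), and the type with the highest mean marker level was taken. Of 857 wells with at least 50000 reads, 91 were fibroblast wells (Dcn, Lum, Col1a1, Col1a2 and Col3a1), 57 were vessel wells (56 endothelial and 1 mural), 230 were oligodendrocyte precursor (OPC) wells, 78 were committed precursor (COP) wells and 350 were mature oligodendrocyte (MOL) wells. The other 51 wells were 11 microglial, 13 choroid plexus, 11 astrocyte, 3 neuronal and 1 macrophage well, and 12 with no type.

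Immediate early genes are switched on within minutes of a stimulus, without new protein synthesis, through transcription factors that are already in the cell, such as serum response factor (SRF) and CREB. Many of their products are transcription factors themselves, such as the Fos and Jun proteins of AP-1, and others, such as Dusp1 and Zfp36, end the response by removing phosphates from MAP kinases or by destroying short-lived messenger RNA. Heat shock genes encode chaperones, which fold and rescue proteins, and are switched on by heat shock factor 1 when proteins unfold. Both sets are known to rise in many cell types while a tissue is cut and digested into single cells.

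Promoter sequences from RefSeq (build GRCm38.p6, 250 bases before to 50 bases after a start) were at hand for 22 of the 27 immediate early genes and 4 of the 6 heat shock genes. The 5 below show the kinds of control element found, with the matched letters in capitals: a TATA box (TATAAA) in Fos, the CArG box bound by SRF in Zfp36, a cyclic AMP response element (TGACGTCA) in Dusp1, the core of a heat shock element (GAANNTTC) in Hspa1a, and a longer heat shock element, the core extended by another GAA unit, in Hsph1.
Fos, chr12:85473640-85473939, plus strand: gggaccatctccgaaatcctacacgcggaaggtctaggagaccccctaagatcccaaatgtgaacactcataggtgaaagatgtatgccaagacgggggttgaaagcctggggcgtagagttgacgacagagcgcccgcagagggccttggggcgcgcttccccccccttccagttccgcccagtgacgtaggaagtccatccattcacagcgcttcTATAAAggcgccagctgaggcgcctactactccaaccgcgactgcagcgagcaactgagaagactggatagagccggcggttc
Zfp36, chr7:28379179-28379478, minus strand: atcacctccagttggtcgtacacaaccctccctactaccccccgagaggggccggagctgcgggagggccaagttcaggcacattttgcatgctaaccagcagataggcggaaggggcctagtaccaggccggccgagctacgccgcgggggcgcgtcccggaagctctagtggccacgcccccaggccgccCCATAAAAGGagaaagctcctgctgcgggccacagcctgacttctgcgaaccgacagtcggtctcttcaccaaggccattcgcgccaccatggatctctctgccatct
Dusp1, chr17:26508423-26508722, minus strand: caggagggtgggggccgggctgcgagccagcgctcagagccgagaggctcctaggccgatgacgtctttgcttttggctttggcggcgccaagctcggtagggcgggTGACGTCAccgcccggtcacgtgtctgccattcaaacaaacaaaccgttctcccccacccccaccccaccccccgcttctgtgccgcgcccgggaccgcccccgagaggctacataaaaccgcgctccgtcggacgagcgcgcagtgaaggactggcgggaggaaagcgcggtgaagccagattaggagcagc
Hspa1a, chr17:34972107-34972406, minus strand: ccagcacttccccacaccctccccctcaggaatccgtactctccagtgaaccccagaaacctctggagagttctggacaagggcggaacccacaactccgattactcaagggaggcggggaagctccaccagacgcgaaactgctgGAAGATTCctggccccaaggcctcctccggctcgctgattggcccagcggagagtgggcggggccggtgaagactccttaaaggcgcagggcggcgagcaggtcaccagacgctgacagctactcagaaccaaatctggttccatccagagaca
Hsph1, chr5:149636287-149636586, minus strand: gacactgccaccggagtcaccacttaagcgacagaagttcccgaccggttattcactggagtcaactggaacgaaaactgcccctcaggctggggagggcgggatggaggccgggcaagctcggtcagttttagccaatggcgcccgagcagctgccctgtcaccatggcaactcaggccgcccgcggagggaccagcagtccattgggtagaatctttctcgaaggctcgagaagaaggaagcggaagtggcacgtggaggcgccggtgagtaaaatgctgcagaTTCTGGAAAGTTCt
Both strands of each window were searched. The CArG box was found in the windows of Egr2 and Zfp36 among the immediate early genes, against 1.63% of all 32851 windows. TGACGTCA was found in Btg2 and Dusp1, against 1.79% of all windows, and TATAAA in Fos, Junb, Nr4a2 and Cyr61, against 13.6%. The AP-1 site TGANTCA was in no window of the 22 genes, against 7.81% of all windows. GAANNTTC was found in Hspa1a, Hspa1b and Hsph1, and also in Fosl2 and Jun, against 7.86% of all windows. The longer heat shock element, which holds the core within it, was found in Hsph1 among the members, against 0.603% of all windows. A match is a description of these letters and says nothing about use of the site in these cells.

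Several features of the wells bear on the values. Kept wells had 50002 to 1451280 reads, and the median was 260495 reads in fibroblast wells, 365325 in vessel wells, 262342 in OPC wells, 452997 in COP wells and 271484 in MOL wells. Well names begin with 1 of 3 prefixes (613s, 600s_182s or 1025s_182s), each shared by 384 wells and given no meaning in the labels, and the classes are spread unevenly over them: 600s_182s held 180 of the 230 OPC wells and 67 of the 78 COP wells, but 22 of the 91 fibroblast wells and 6 of the 57 vessel wells. Markers of another lineage (at least 3 of 5 at 100 CPM) were present in 28 fibroblast, 31 vessel, 14 OPC, 5 COP and 56 MOL wells, and 21 of the 57 vessel wells carried microglial markers. No doublet caller was run, and wells without such markers are called exclusive below. Endothelial and mural markers counted as 1 lineage here, so exclusive vessel wells may hold RNA of both. The 5 mural markers, summed, had a median of 736 CPM in vessel wells (1.27 to 7781 CPM), against 28.2 CPM in fibroblast wells. In vessel wells Rgs5 had a median of 614 CPM and Acta2 of 28.7 CPM, while Kcnj8, Abcc9 and Myh11 had medians of 0. The largest count of a well grew little with its reads, with a median of 3567 reads in the deepest 20% of wells (median depth 645952 reads) and 2463 reads in the shallowest 20% (median depth 81338.5 reads). Whether duplicate reads were removed before counting is not given in the sources used here, and the part of this ceiling in the ratios of highly expressed members was not tested. In fibroblast wells split by depth, the median level of Fos was 3317 CPM in the shallowest wells, 2999 CPM in the middle wells and 3217 CPM in the deepest wells.

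Of the 5 classes, vessel wells had the highest median level of the members and fibroblast wells came next, above the 3 oligodendrocyte stages. The mean log2(CPM + 1) over the 33 genes, taken in each well, had a median of 4.67 in fibroblast wells (lowest 0.97, highest 6.74) and 6.30 in vessel wells (2.39 to 7.91). It was 2.99 in OPC wells (1.07 to 5.36), 2.51 in COP wells (1.67 to 5.99) and 2.71 in MOL wells (0.98 to 5.59). The ranges overlapped between all classes, but the lower quartile of the vessel wells, 4.28, lay above the upper quartile of the OPC wells, 3.39, and of the MOL wells, 3.45. In exclusive wells the median was 4.68 in 63 fibroblast wells, 5.62 in 26 vessel wells, 2.97 in 216 OPC wells, 2.49 in 73 COP wells and 2.58 in 294 MOL wells. The fibroblast median depended on the set: it was 4.74 in 1025s_182s, 2.98 in 600s_182s and 5.17 in 613s, against 2.51, 3.00 and 3.29 in the OPC wells of the same sets.

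The 27 immediate early genes and the 6 heat shock genes ordered the classes differently. The mean over the immediate early genes had a median of 4.61 in fibroblast wells and 6.43 in vessel wells, against 2.61 in OPC wells, 1.99 in COP wells and 2.19 in MOL wells. The mean over the heat shock genes had a median of 4.42 in fibroblast wells and 6.15 in vessel wells, against 4.36 in OPC wells, 4.76 in COP wells and 4.86 in MOL wells. On the heat shock genes, fibroblast wells lay close to OPC wells and below the COP and MOL wells, with quartiles of 3.68 and 5.19 in fibroblast wells and 3.72 and 5.01 in OPC wells.

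**Figure D1:**
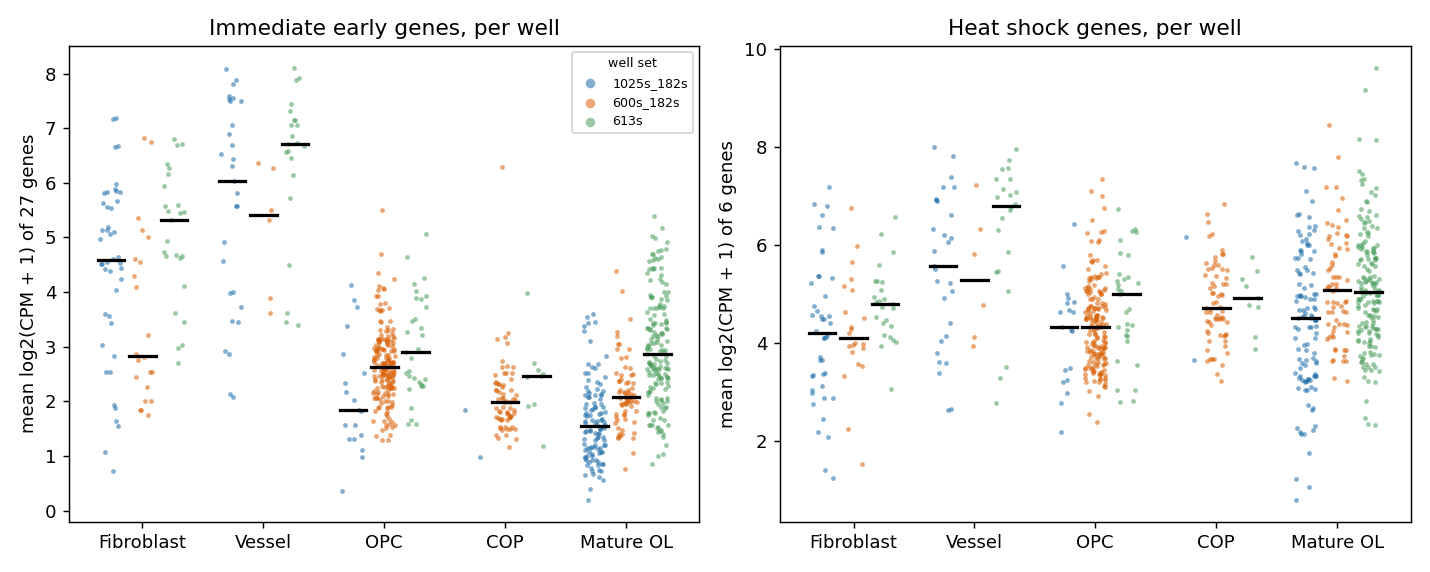
Mean log2(CPM + 1) of the 27 immediate early genes (left) and the 6 heat shock genes (right) in each well, by class (mature OL are the MOL wells) and well set (colour); points are wells and bars are medians of a class and set. Vessel wells reach the highest medians in both panels, and fibroblast wells of set 600s_182s sit lower on the left than those of the other sets.

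Which member was most abundant in the pooled reads depended on the class. Levels of different genes are compared here as pooled CPM per kilobase of exon. In fibroblast wells Fos led at 1186, followed by Junb at 535, Ier2 at 377, Egr1 at 334, Dusp1 at 294 and Jun at 281. In vessel wells Fos led at 837, followed by Ier2 at 589, Dusp1 at 475, Junb at 447 and Ier3 at 403. In OPC wells Fos, at 266, and Jun, at 215, were followed by the chaperones Hsp90aa1, at 106, and Hspa8, at 103. In COP wells the chaperones led, Hspa8 at 101 and Hsp90aa1 at 92.1, followed by the nuclear receptor gene Nr4a1 at 64.6 and Jun at 59.7. In MOL wells Hsp90aa1, at 212, came before Fos, at 188, and Hspa8, at 134. Wells with high levels weigh heavily in these pooled values. In OPC wells the median CPM, not scaled for exon length, was 92.6 for Fos, 304 for Jun, 383 for Hsp90aa1 and 429 for Hspa8. In MOL wells it was 85.0 for Fos, 812 for Hsp90aa1 and 540 for Hspa8, so the place of Fos in both stages held for the pool only. Egr3 and Nr4a3 stayed under 10 CPM in all 5 classes.

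Fos, a component of the AP-1 dimer and the classical marker of recent activation, was found in nearly every well but at very different levels. Single wells had 14.0 to 19128 CPM (median 3217) in fibroblast wells and 7.13 to 5464 CPM (median 1736) in vessel wells. They had 0 to 8561 CPM (median 92.6) in OPC wells, 0 to 3765 CPM (median 19.8) in COP wells and 0 to 13060 CPM (median 85.0) in MOL wells. All classes overlapped, and the spread within a class was wide: the quartiles were 402 and 4831 CPM in fibroblast wells and 709 and 2798 CPM in vessel wells, against 29.4 and 766 CPM in OPC wells, 12.6 and 41.6 CPM in COP wells and 23.2 and 370 CPM in MOL wells. At least 200 CPM was reached by 72 of 91 fibroblast wells (79.1%) and 47 of 57 vessel wells (82.5%), against 93 of 230 OPC wells (40.4%), 8 of 78 COP wells (10.3%) and 129 of 350 MOL wells (36.9%). By set, this share was 86.4%, 59.1% and 84.0% in the fibroblast wells of 1025s_182s, 600s_182s and 613s, and 24.8%, 14.3% and 54.5% in the MOL wells of the same sets. Markers of another lineage were present in 23 of the 72 high and 5 of the 19 low fibroblast wells, and in 28 of the 47 high and 3 of the 10 low vessel wells. They were present in 40 of the 129 high and 16 of the 221 low MOL wells; their part in the Fos level was not tested.

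**Figure D2:**
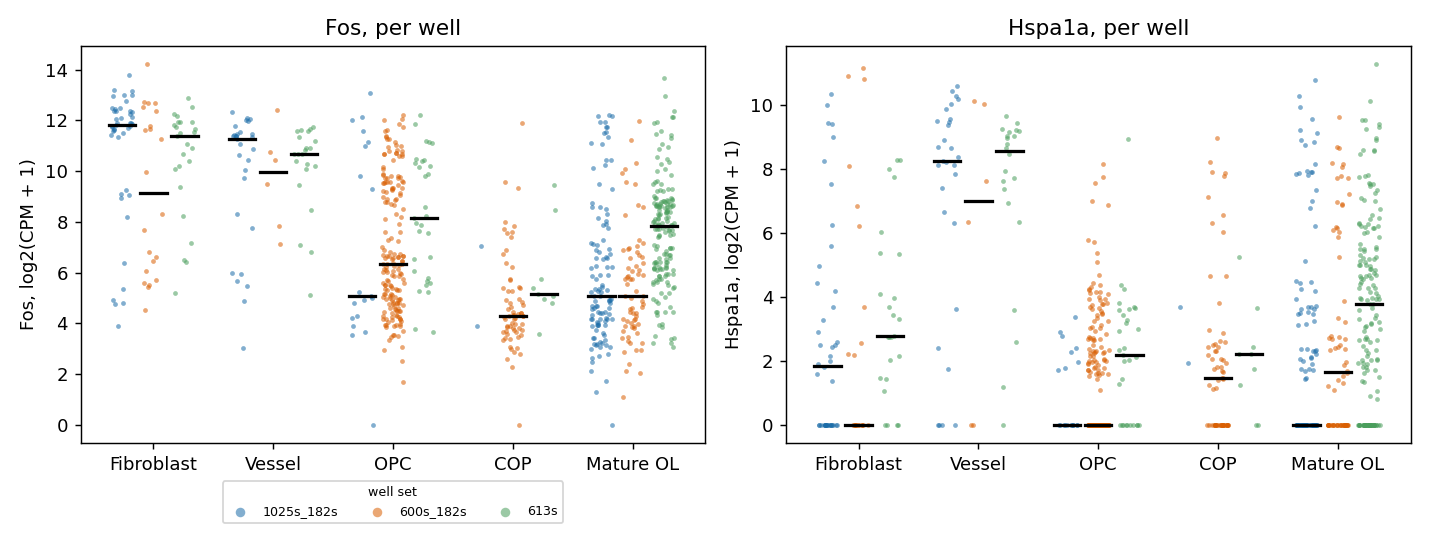
Level of Fos (left) and Hspa1a (right) in each well as log2(CPM + 1), by class and well set; points are wells and bars are medians of a class and set. Fos is spread over most of the axis in all classes but COP, where few wells are high, and the vessel wells hold the highest medians of Hspa1a.

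In fibroblast wells against OPC wells, genes of the AP-1, EGR and IER families and of the feedback group were higher, while Jun, Jund, the NR4A genes and most chaperone genes were not. A gene was called where pooled CPM, with 1 CPM added to each side, differed at least 2-fold and reached 10 CPM in the higher class. Of the 33 members 30 reached 10 CPM (not Egr3, Nr4a3 and Hspa1b): 21 were called higher and 1 lower, against 21% and 27.9% of all genes, and their median log2 ratio was 2.16, against -0.19 over all genes. Of the 25 immediate early members measured, 19 were higher and none lower. All 3 IER genes were higher, as were 5 of 7 AP-1 and partner genes, 3 of 4 KLF genes and 6 of 7 feedback and effector genes, but neither of the measured NR4A genes.

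Zfp36, whose product destroys messenger RNA of cytokines and other short-lived transcripts, differed most between fibroblast and OPC wells. It had 0 to 3402 CPM (median 185) in fibroblast wells, against 0 to 936 CPM (median 3.47) in OPC wells. The wells overlapped, but the lower quartile of the fibroblast wells, 19.4 CPM, exceeded the upper quartile of the OPC wells, 9.28 CPM. The pooled log2 ratio was 5.79, and 4.53, 5.75 and 4.74 within 1025s_182s, 600s_182s and 613s. Klf4, a zinc finger factor induced by stress, had 0 to 1424 CPM (median 0) in fibroblast wells, against 0 to 119 CPM (median 0) in OPC wells, so that its log2 ratio of 4.36 rested on the fibroblast wells with any read, 42 of 91. Socs3, which blocks JAK and STAT signalling, had 0 to 2746 CPM (median 39.7) in fibroblast wells, against 0 to 882 CPM (median 1.46) in OPC wells, with a log2 ratio of 3.68.

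Atf3, a stress-induced partner of the Jun proteins, had a log2 ratio of 4.31 for fibroblast over OPC wells but was at 0 in 61 of 91 fibroblast wells. Its highest well had 517 CPM in fibroblast wells, against 17.9 CPM in OPC wells. Pooled Atf3 was 41.3 CPM in all fibroblast wells and 16.7 CPM in the exclusive ones, against 1.13 and 1.14 CPM in OPC wells, and within 600s_182s the log2 ratio was 0.64, below the 10 CPM limit. Egr1, a zinc finger factor controlled by SRF, had 0 to 13457 CPM (median 1071) in fibroblast wells, against 0 to 2451 CPM (median 25.8) in OPC wells. The fibroblast lower quartile, 247 CPM, exceeded the OPC upper quartile, 129 CPM, and the log2 ratio was 2.88. Fos had pooled levels of 2790 CPM in fibroblast wells (95% counting interval 2771 to 2810) and 625 CPM in OPC wells, a log2 ratio of 2.16, with 1.66, 2.21 and 1.40 within 1025s_182s, 600s_182s and 613s.

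Jun did not follow its partners. It had 0 to 10924 CPM (median 427) in fibroblast wells, against 0 to 7215 CPM (median 304) in OPC wells. The quartiles overlapped (33.6 to 1676 CPM in fibroblast wells, 66.4 to 889 CPM in OPC wells), the log2 ratio was 0.38, and it stayed between 0.21 and 0.60 within the 3 sets. Within 600s_182s the medians of Jun went the other way, 72.5 CPM in fibroblast wells and 275 CPM in OPC wells. Klf10, a factor induced by TGF-beta, had 0 to 873 CPM (median 0) in fibroblast wells, against 0 to 1152 CPM (median 0) in OPC wells, and its pooled log2 ratio of -0.44 hid opposite values within sets. Hsph1, a chaperone that recharges HSP70, was the member called lower, with 0 to 786 CPM (median 2.05) in fibroblast wells and 0 to 2623 CPM (median 8.40) in OPC wells, a log2 ratio of -1.37, and -0.76, short of the threshold, within 600s_182s.

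More members were higher than lower in fibroblast over OPC wells in each set by pooled CPM. In 600s_182s the median 33-gene score was close, 2.98 in fibroblast wells and 3.00 in OPC wells. The immediate early mean had medians of 2.83 and 2.62 there, and the heat shock mean 4.11 and 4.33, in the same order. Median Fos was 660 CPM in these fibroblast wells and 80.5 CPM in these OPC wells, while median Jun was lower, 72.5 against 275 CPM. Egr1, at 928 pooled CPM in these fibroblast wells, had a median of 46.1 CPM there, against 25.4 CPM in OPC wells. Klf2 had a median of 0 in both. Within 1025s_182s 23 of 30 measured members were higher and 1 lower, against 34% and 30.6% of all genes. Within 600s_182s 18 of 28 were higher and 2 lower, against 20.6% and 45.6%, and within 613s 20 of 29 were higher and 3 lower, against 28.6% and 34.2%. In exclusive wells 22 of 30 were higher and 1 lower, against 21.1% and 29.9%. Dnajb1, called higher in the pooled wells at a log2 ratio of 1.30, reached 0.86, 0.85 and 0.44 within the sets and was not called in any of them. Egr2, called at 2.87, was at 0 in 75 of 91 fibroblast wells and had a log2 ratio of -1.72 within 600s_182s.

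Against MOL wells the fibroblast wells were higher for 22 of the 25 measured immediate early genes and for none of the 5 measured heat shock members. Of 30 measured members 22 were higher and 1 lower, against 29.9% and 22% of all genes, with a median log2 ratio of 2.67, against 0.17 over all genes. Of the 25 immediate early members 22 were higher and none lower, and of the 5 heat shock members none was higher and 1 lower. The largest ratios belonged to Socs3 (5.13), Ier3 (5.12), Cyr61 (5.09) and Ier5 (5.01). Ier3, which protects cells from death signals, had 0 to 1483 CPM (median 10.4) in fibroblast wells, against 0 to 411 CPM (median 0) in MOL wells. Cyr61, a secreted matrix protein that is named Ccn1 in newer annotation and is a known target of YAP, had 0 to 5499 CPM (median 7.37) in fibroblast wells, against 0 to 829 CPM (median 2.30) in MOL wells. Its quartiles overlapped, and the high pooled level came from a part of the fibroblast wells, 22 of 91 with at least 200 CPM, against 4 of 350 MOL wells. Ier5, an activator of heat shock factor 1, had 0 to 967 CPM (median 0) in fibroblast wells, against 0 to 115 CPM (median 0) in MOL wells. Jun, not called against OPC wells, was called against MOL wells at 1.89, with a median of 427 CPM in fibroblast wells and 86.0 CPM in MOL wells. Fos had a log2 ratio of 2.66 and Egr1 of 3.19.

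Hsp90aa1, the inducible form of the HSP90 chaperone, was the member called lower in fibroblast than in MOL wells. It had 0 to 3359 CPM (median 246) in fibroblast wells, against 0 to 5334 CPM (median 812) in MOL wells, a log2 ratio of -1.42, with -1.59, -1.37 and -1.40 within 1025s_182s, 600s_182s and 613s. The quartiles of Hsp90aa1, 142 to 427 CPM in fibroblast wells and 396 to 1072 CPM in MOL wells, overlapped slightly. Hsph1 had a log2 ratio of -0.60 and Hspa1a of 0.45, neither of which was called in the pool. Within 600s_182s Hspa1a, at 2.28, and Hspa1b, at 1.98, were called higher in fibroblast wells. Within 1025s_182s, 600s_182s and 613s, 24 of 30, 21 of 28 and 19 of 29 members were higher in fibroblast wells, against 34.6%, 28.8% and 31.3% of all genes, and 1, 1 and 2 were lower, against 23%, 38.9% and 29.1%. Atf3, Egr2 and Nr4a1 were not called within 600s_182s, nor Egr2, Nr4a1 and Klf10 within 613s.

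In vessel wells against OPC wells the KLF genes and Atf3 stood out beside the AP-1 and feedback genes, and HSP70 transcripts were higher too. Of 30 measured members (not Egr2, Egr3 and Nr4a3) 24 were higher and 1 lower, against 22% and 29.1% of all genes, with a median log2 ratio of 2.59, against -0.15 over all genes. All 4 KLF genes, all 3 IER genes, both measured NR4A genes and 6 of 7 feedback genes were higher. Microglial markers, summed over 5 genes, were at 1544 pooled CPM in vessel wells (0 to 5749 CPM in single wells, none of the 5 at 0 in the pool), against 24.5 pooled CPM in OPC wells. In exclusive wells 23 of 30 members were higher and 1 lower, against 22.2% and 36.6% of all genes.

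Atf3 had 0 to 1944 CPM (median 12.0) in vessel wells, against 0 to 17.9 CPM (median 0) in OPC wells. Its log2 ratio was 7.51, and 23 of 57 vessel wells and no OPC well reached 200 CPM. In the 26 exclusive vessel wells Atf3 stood at 290.1 pooled CPM with a median of 0, so that a part of the wells carried it. The 11 microglial wells had a median of 749 CPM of Atf3. The part of microglial RNA in the vessel level was not tested. Zfp36 had 0 to 2338 CPM (median 885) in vessel wells, against a median of 3.47 CPM in OPC wells, a log2 ratio of 6.31. Klf4 had 0 to 1705 CPM (median 187) in vessel wells, against a median of 0 in OPC wells, a log2 ratio of 6.02 (6.78 in exclusive wells). Klf2, a flow-induced factor of endothelium, had 0 to 3182 CPM (median 527) in vessel wells, against 0 to 455 CPM (median 0) in OPC wells. Its lower quartile in vessel wells, 332 CPM, lay far above the upper quartile in OPC wells, 2.26 CPM, and its log2 ratio of 5.87 was 7.23, 6.69 and 4.27 within 1025s_182s, 600s_182s and 613s. Fos had a log2 ratio of 1.65 and Egr1 of 2.39, while Jun, at 0.36 with a vessel median of 712 CPM and an OPC median of 304 CPM, was not called; in exclusive wells it reached 1.00, just short of the call.

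Hsph1 was the member called lower in vessel than in OPC wells. It had 0 to 385 CPM (median 3.30) in vessel wells, against 0 to 2623 CPM (median 8.40) in OPC wells, and a log2 ratio of -1.51. In exclusive vessel wells Hsph1 was at 8.19 pooled CPM, and the log2 ratio was -3.79. Hsp90aa1 had 0 to 806 CPM (median 283) in vessel wells, against 3.92 to 1342 CPM (median 383) in OPC wells, a log2 ratio of -0.50 that was not called. Within 1025s_182s, 600s_182s and 613s, 25 of 30, 22 of 29 and 23 of 30 members were higher in vessel wells, against 33.5%, 22% and 30.5% of all genes, and 1, 4 and 1 were lower, against 32.7%, 49% and 31.3%. Nr4a1, Nr4a2 and Klf10 lost their calls within 600s_182s, where there were 6 vessel wells, and Klf10 also in exclusive wells, at 0.28. Dnajb1, called at 1.54 in the pool, had 0.86 within 1025s_182s and 0.84 within 613s.

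**Figure D3:**
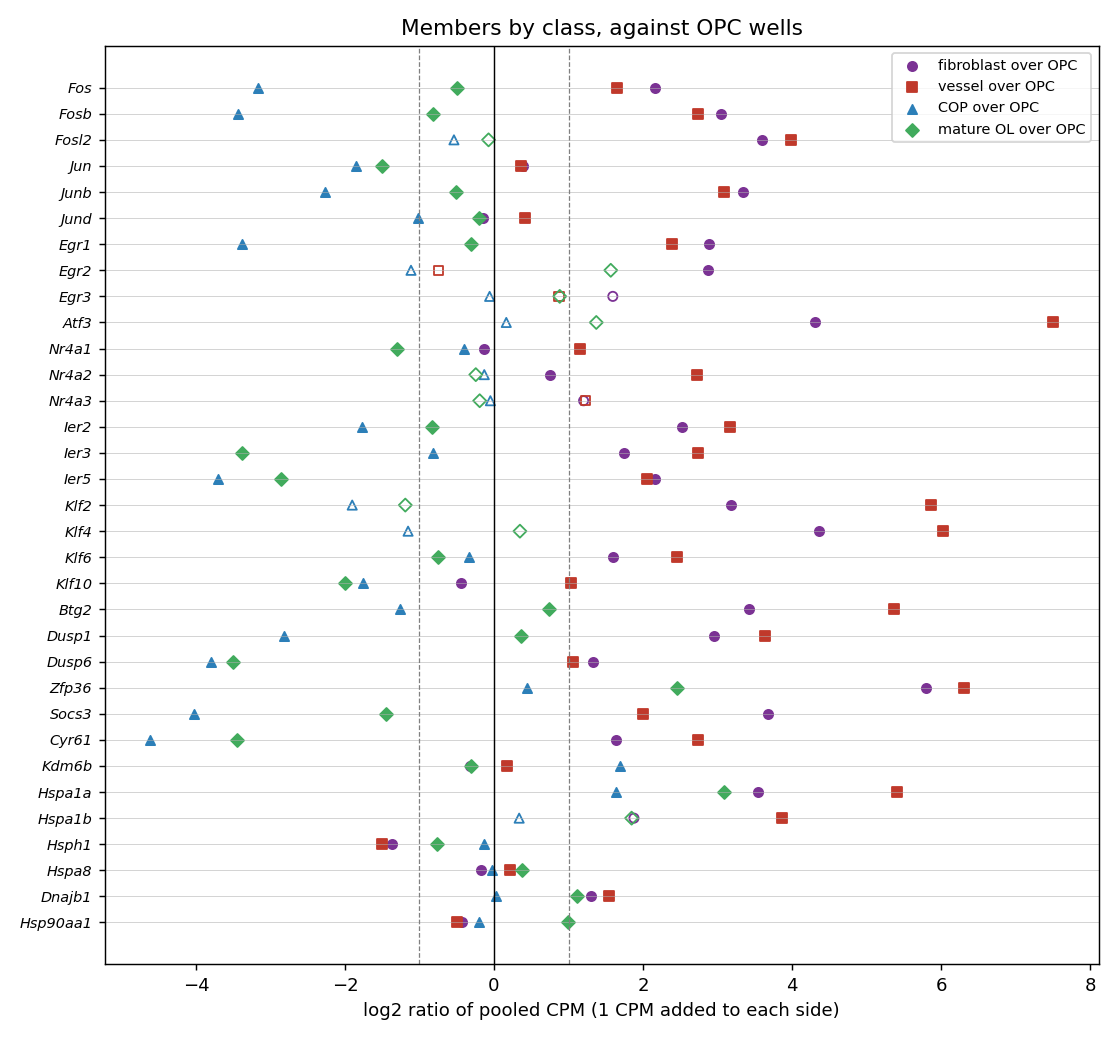
Log2 ratio of pooled CPM for each member in fibroblast, vessel, COP and MOL (mature OL) wells, each over OPC wells, with 1 CPM added to each side; filled symbols reach 10 CPM in either class and open ones do not. Atf3, Zfp36, Klf4 and Klf2 lie farthest right in vessel wells, and Jun lies near 0 for fibroblast and vessel wells and left of -1 for COP and MOL wells.

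Set against each other, fibroblast and vessel wells differed mainly in the KLF, NR4A and HSP70 genes: 3 of 4 KLF genes, both measured NR4A genes, Hspa1a and Hspa1b were lower in fibroblast wells. Of 31 measured members 2 were higher and 10 lower in fibroblast wells, against 21.6% and 21% of all genes, and the median log2 ratio was -0.51, against -0.04 over all genes. Egr2, a factor known from Schwann cells, had 0 to 513 CPM (median 0) in fibroblast wells, against 0 to 39.6 CPM (median 0) in vessel wells, a log2 ratio of 3.61 carried by few wells. Socs3 had a median of 39.7 CPM in fibroblast wells and 32.5 CPM in vessel wells but upper quartiles of 870.3 and 271 CPM in the same order, and its log2 ratio was 1.68. Fos (0.50), Egr1 (0.49) and Jun (0.02) were not called. Klf2 had a median of 4.55 CPM in fibroblast wells, against 527 CPM in vessel wells, and a log2 ratio of -2.68. Atf3 had a log2 ratio of -3.20, with -3.98, -4.74 and -2.45 within 1025s_182s, 600s_182s and 613s.

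Hspa1a, the stress-induced HSP70, had 0 to 2313 CPM (median 3.48) in fibroblast wells, against 0 to 1542 CPM (median 302) in vessel wells, and a log2 ratio of -1.87. The upper quartile of Hspa1a in fibroblast wells, 25.4 CPM, was below the lower quartile in vessel wells, 80.2 CPM. Btg2, an anti-proliferative gene, was lower in fibroblast wells at -1.94, Nr4a1 at -1.30 and Cyr61 at -1.10. Ier3, at -0.99, was just short of the threshold. Within 1025s_182s, 600s_182s and 613s, 2, 2 and 2 members were higher and 10, 10 and 12 lower, of 31, 29 and 31 measured, against 27.4%, 37.4% and 24.5% of all genes higher and 23.6%, 32.7% and 29.7% lower. In exclusive wells 3 of 31 were higher and 11 lower, against 30.4% and 23.9%. Exclusive wells moved Hspa1a to -2.78, Btg2 to -2.77, Atf3 to -4.04 and Egr2 to 5.05, and Hsph1, at 0.14 in the pool, to 2.61. Klf10, lower at -1.47 in the pool, was at 0.17 within 1025s_182s and 0.39 within 600s_182s, and its call rested on 613s.

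Many immediate early genes were lower in COP wells than in OPC wells. In COP wells against OPC wells, 14 of 24 measured members were lower and 2 higher, against 23.2% and 10.3% of all genes, and the median log2 ratio was -1.51, against -0.13 over all genes. The 14 lower members were all immediate early genes and included all 5 measured AP-1 genes, Egr1 and 5 of 7 feedback genes. Among the AP-1 genes, Jund, at -1.01, was not called with median-of-ratios scaling (-0.82) or in exclusive wells (-0.88). The 9 members under 10 CPM in both stages were Fosl2, Egr2, Egr3, Atf3, Nr4a2, Nr4a3, Klf2, Klf4 and Hspa1b. Fos was at 68.7 pooled CPM in COP wells, against 625 CPM in OPC wells, a log2 ratio of -3.17, with -3.02 within 600s_182s and -2.95 within 613s. Egr1 had 0 to 2000 CPM (median 7.18) in COP wells, against a median of 25.8 CPM in OPC wells, a log2 ratio of -3.37. Jun had 2.45 to 2033 CPM (median 31.3) in COP wells, against a median of 304 CPM in OPC wells, a log2 ratio of -1.85. Cyr61 had 0 to 110 CPM (median 2.69) in COP wells, against 0 to 1821 CPM (median 3.76) in OPC wells, a log2 ratio of -4.61; 39 OPC wells and no COP well had at least 200 CPM. Socs3 had a log2 ratio of -4.03, with 0 to 176 CPM (median 0) in COP wells.

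Kdm6b went the other way. This gene, which encodes a demethylase that removes the repressive mark H3K27me3, had 0 to 492 CPM (median 76.5) in COP wells, against 0 to 667 CPM (median 6.35) in OPC wells. Its lower quartile in COP wells, 32.0 CPM, exceeded the upper quartile in OPC wells, 20.0 CPM, and the log2 ratio was 1.69, with 1.48 within 600s_182s and 2.11 within 613s. After every well was thinned to 50000 reads, Kdm6b was detected in 68 of 78 COP wells (87.2%, exact 95% interval 77.7 to 93.7%), against 91 of 230 OPC wells (39.6%, 33.2 to 46.2%). Before thinning the shares were 97.4% in COP wells and 74.3% in OPC wells. The other stages and classes had medians of Kdm6b between 2.47 and 6.48 CPM.

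Nr4a1, an orphan nuclear receptor, had 0 to 1277 CPM (median 86.6) in COP wells, against 0 to 1673 CPM (median 27.7) in OPC wells, a log2 ratio of -0.41 that was not called. Hspa1a was called higher in COP wells at 1.64, with 0 to 506 CPM (median 2.17) in COP wells and 0 to 497 CPM (median 1.57) in OPC wells. That call rested on 5 COP wells with at least 200 CPM and had the opposite sign, -1.64, within 613s. Zfp36, at 0.45, and Dnajb1, at 0.02, were not called. Within 600s_182s 13 of 24 members were lower and 3 higher in COP wells, against 23% and 10.9% of all genes, and within 613s, where there were 9 COP wells, 14 of 22 were lower and 1 higher, against 38.3% and 22.1%. Set 1025s_182s held 2 COP wells and gave no value. In exclusive wells 13 of 24 were lower and 2 higher, against 23.2% and 10.6%.

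In MOL wells against OPC wells the shares of higher and of lower members were near those of all genes. Of 24 measured members 3 were higher and 8 lower, against 11.3% and 28.1% of all genes. The 3 higher ones were 2 of the 5 measured heat shock members and 1 immediate early gene. The median log2 ratio was -0.64, against -0.35 over all genes. The 3 higher members were Hspa1a (3.09), Zfp36 (2.46) and Dnajb1 (1.11). Hsp90aa1 had 0 to 5334 CPM (median 812) in MOL wells, against 3.92 to 1342 CPM (median 383) in OPC wells, and its log2 ratio of 1.00 (0.997) missed the threshold narrowly. It passed at 1.29 with median-of-ratios scaling and at 1.03 in exclusive wells, with 0.87, 0.81 and 0.70 within 1025s_182s, 600s_182s and 613s. Hspa1a had 0 to 2507 CPM (median 4.19) in MOL wells, against a median of 1.57 CPM in OPC wells, with 41 of 350 MOL wells and 3 of 230 OPC wells at 200 CPM or more. Zfp36 had 0 to 1272 CPM (median 11.2) in MOL wells, against a median of 3.47 CPM in OPC wells. Dnajb1, the HSP40 that hands clients to HSP70, had 0 to 3033 CPM (median 22.0) in MOL wells, against 0 to 1067 CPM (median 7.92) in OPC wells, and was not called within any set but 600s_182s.

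Dusp6, a phosphatase that switches off ERK, was lowest in MOL relative to OPC wells. It had 0 to 1001 CPM (median 0) in MOL wells, against 0 to 1297 CPM (median 8.06) in OPC wells, a log2 ratio of -3.50, with -2.04, -4.97 and -1.68 within 1025s_182s, 600s_182s and 613s. Cyr61 (-3.45), Ier3 (-3.38) and Ier5 (-2.86) followed, and Cyr61 was at -6.47, -4.46 and -0.18 within the 3 sets in the same order. Jun was lower at -1.51, and its values within sets lay between -1.54 and -1.47. Fos (-0.50) and Egr1 (-0.31) were not called in the pool. Within 600s_182s 14 of 24 members were lower and 3 higher in MOL wells, against 31.3% and 12.9% of all genes, and Fos was at -1.40. Within 1025s_182s 10 of 23 were lower and 2 higher, against 34% and 24.6%, and within 613s 7 of 25 were lower and 5 higher, against 31.1% and 21.4%. In exclusive wells 9 of 24 were lower and 4 higher, against 29.2% and 11.3%.

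**Figure D4:**
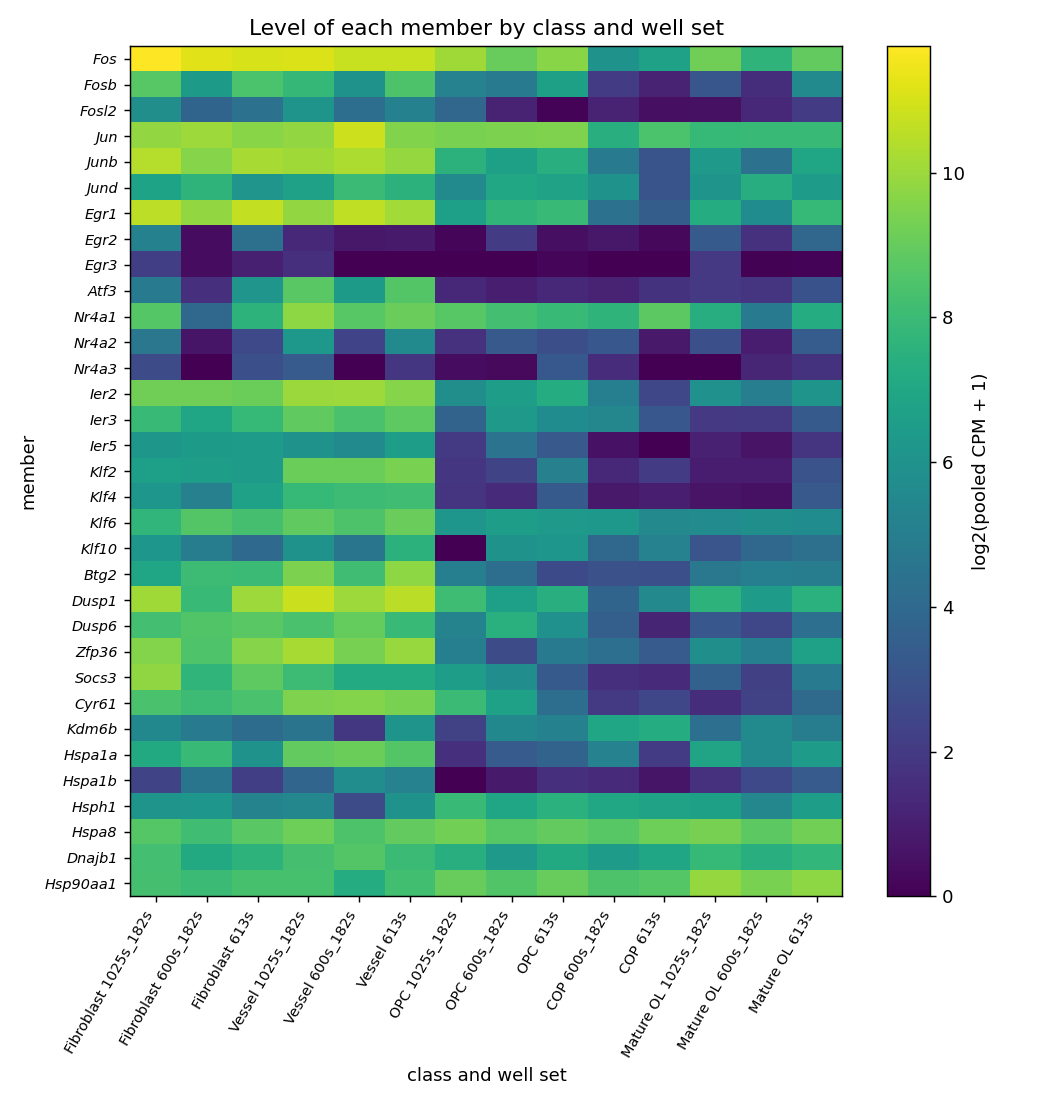
Pooled level of each of the 33 members as log2(pooled CPM + 1), with members in rows and classes split by well set in columns. Rows such as Klf2, Klf4 and Atf3 are bright in the vessel columns, while Hspa8 and Hsp90aa1 are bright throughout.

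The heat shock members did not move as 1 block. Hspa8, which encodes the HSC70 present in all cells, was at 395 pooled CPM in fibroblast wells and 514 CPM in vessel wells, against 444 CPM in OPC wells, 435 CPM in COP wells and 574 CPM in MOL wells, and it was called in none of the 6 comparisons. Its share of wells with a read, after thinning, lay between 96.7% in fibroblast wells and 100% in vessel and COP wells. Hsph1 was at 54.9 CPM in fibroblast wells and 49.8 CPM in vessel wells, against 143 CPM in OPC wells, 130 CPM in COP wells and 83.5 CPM in MOL wells. Hspa1a and Hspa1b are near-identical neighbours on chromosome 17. Of the windows of 50 bases along Hspa1a, 58.8% also occur in Hspa1b, so the split of reads between them is uncertain, although Hspa1b was at 27.4 CPM in vessel wells and under 10 CPM in every other class. The genes Jun, Junb, Jund, Atf3, Dusp1, Zfp36, Kdm6b, Hspa1a and Hspa8 overlap other annotated genes, and the strand setting of the counting is not given in the sources used here, so their reads may include those of a partner.

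The members differed between well sets in some classes, and in others their shares were near those of all genes. Among MOL wells, 613s was higher than 600s_182s for 13 of 23 measured members and lower for none, against 15.4% and 9.62% of all genes. Fosb, a close relative of Fos, was at 46.9 CPM in the 613s wells and 1.89 CPM in the 600s_182s wells, a log2 ratio of 4.05, and Junb was at 124 and 20.0 CPM in the same order. Relative to 1025s_182s, 613s was higher for 5 of 23 and lower for none, against 16.3% and 6.75%. Among fibroblast wells, 600s_182s was higher than 1025s_182s for 2 of 31 members and lower for 13, against 21.9% and 38.1% of all genes, and the share of lower members was near that of all genes. Nr4a1 was at 14.0 CPM in the fibroblast wells of 600s_182s, against 408 CPM in those of 1025s_182s. The median 33-gene score of fibroblast wells was 5.17 in 613s and 2.98 in 600s_182s. Among OPC wells, 613s was higher than 600s_182s for 3 of 25 and lower for 5, shares near the 15.7% and 20.8% of all genes. Among vessel wells 613s was higher than 1025s_182s for 3 of 30 and lower for none, against 21.7% and 14% of all genes.

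Within a class and set, a core of AP-1 and EGR1 transcripts varied together from well to well. Pearson r of log2(CPM + 1) was taken across wells in each of 11 groups of at least 20 wells of 1 class and set (770 wells in all) and averaged. These wells share plate and depth, and r is a description. The closest pairs were Fos and Egr1 (mean r 0.68, between 0.28 and 0.88), Junb and Egr1 (0.65, between 0.49 and 0.87) and Fos and Junb (0.63, between 0.45 and 0.84). Against the mean of the other immediate early genes, Egr1 had a mean r of 0.70, Junb 0.69, Fos 0.66, Ier2 0.56, Fosb 0.56, Dusp1 0.56 and Jun 0.51. Kdm6b (0.10), Nr4a3 (0.06), Hsph1 (0.08) and Hspa8 (0.00) hardly varied with them. The immediate early mean and the heat shock mean had an r of 0.70 in the vessel wells of 1025s_182s and 0.65 in those of 613s, and between -0.02 and 0.60 in the other 9 groups. The immediate early mean had an r with log reads of 0.75 in the vessel wells of 1025s_182s and 0.45 in those of 613s. Its r with the number of genes was 0.78 and 0.70 in the same order. In the other 9 groups r with log reads lay between -0.48 (MOL wells of 600s_182s) and 0.25 (fibroblast wells of 1025s_182s).

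**Figure D5:**
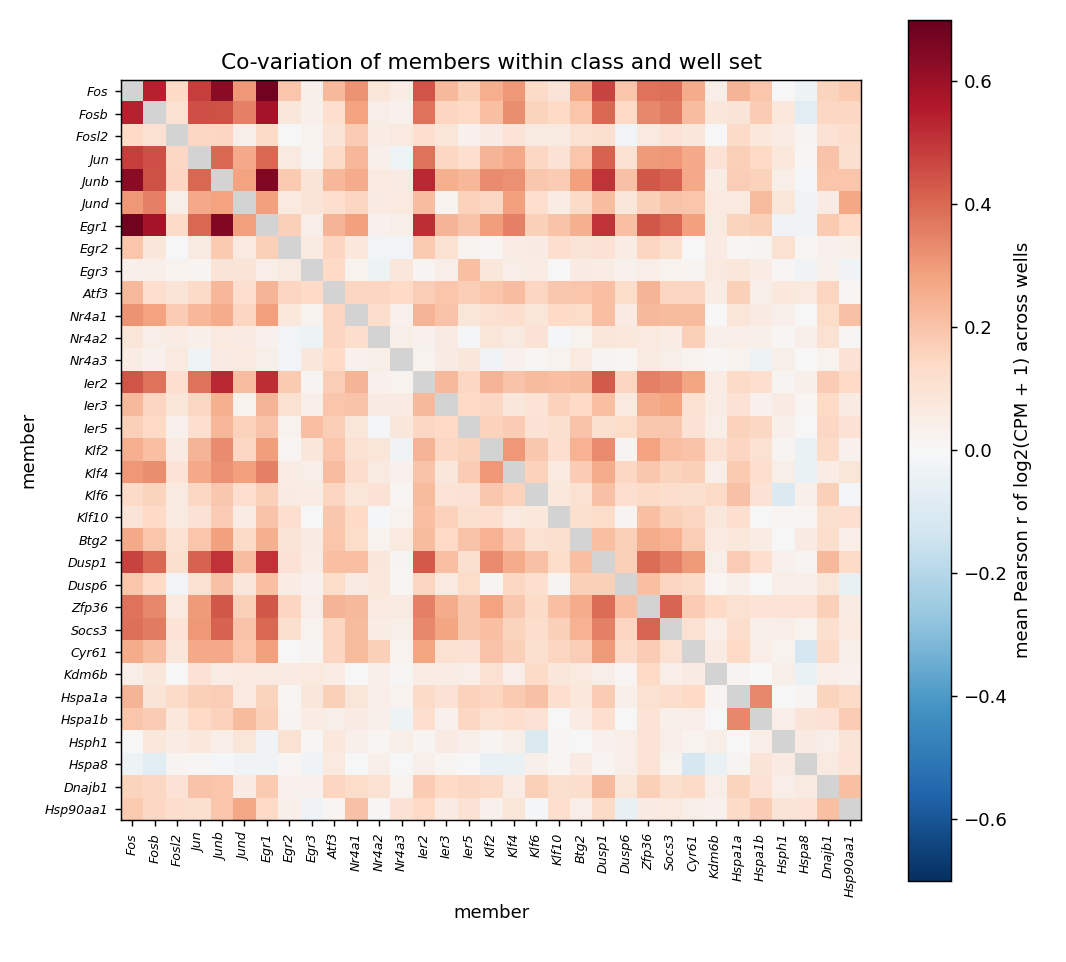
Mean Pearson r of log2(CPM + 1) between each pair of members, averaged over the groups of at least 20 wells of 1 class and set; both axes list the members and the colour gives r. Fos, Fosb, Jun, Junb, Egr1, Ier2 and Dusp1 form the reddest block, and the rows of Hspa8 and Hsph1 are pale.

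Among genes outside all lists, the ones most like the immediate early mean across these wells had a mean r of 0.41 at most, against a median of 0.07 over 8833 genes. Junos, at 0.41, is transcribed antisense to Jun, and Gm11175, at 0.33, overlaps Jund, so both may hold reads of their neighbours. The others were Nrp1 (0.34), a co-receptor for semaphorins and VEGF, Id3 (0.33), Hes1 (0.31), Itgb5 (0.31), Btg1 (0.29), Eng (0.28), Id2 (0.28) and Adamts1 (0.28).

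Genes of the same responses that are not members were counted in the same way. Of 38 other immediate early genes, 30 were measured in fibroblast over OPC wells, and their median log2 ratio was 1.86, with 23 higher and 2 lower, against 21% and 27.9% of all genes and a median of -0.19. The highest were Ptgs2 (6.85), the inducible cyclooxygenase, Cxcl1 (6.72), a neutrophil chemokine, and Cebpb (5.60), and the lowest were Tob1 (-2.17) and Myc (-2.97). In vessel over OPC wells 19 of 29 were higher and 3 lower, against 22% and 29.1% of all genes, led by Cxcl1 (4.75), Sik1 (4.63) and Nfkbia (4.60), the inhibitor of NF-kappa-B, which had a median of 929 CPM in vessel wells, against 5.41 CPM in OPC wells, while Trib1 (-1.32) and Arc (-2.13) were lowest. In fibroblast over MOL wells 20 of 30 were higher and 3 lower, against 29.9% and 22%, with Cxcl1 (6.14), Ptgs2 (6.05) and Cebpb (5.71) highest and Tob1 (-2.30) and Arc (-3.07) lowest. In fibroblast over vessel wells 9 of 31 were higher and 7 lower, shares near the 21.6% and 21% of all genes, with Arc (3.08), Ptgs2 (2.69) and Cebpb (2.51) highest and Tob1 (-2.63) and Dusp2 (-4.05) lowest. In MOL over OPC wells 4 of 22 were higher and 5 lower, near the 11.3% and 28.1% of all genes, with Arc (4.02), Csrnp1 (2.33) and Rhob (1.75) highest and Bhlhe40 (-2.57) and Trib1 (-4.34) lowest. Arc, known from synapses, had 0 to 10519 CPM (median 8.94) in MOL wells, against 0 to 1672 CPM (median 0) in OPC wells. In COP over OPC wells 4 of 21 were higher and 8 lower, against 10.3% and 23.2%, with Sik1 (3.90), Gadd45a (2.14) and Sgk1 (2.14) highest and Bhlhe40 (-2.65) and Trib1 (-3.79) lowest. Sgk1, a kinase induced by glucocorticoids, had a median of 506 CPM in COP wells, against 23.9 CPM in OPC wells.

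Of 24 other heat shock genes measured in fibroblast over OPC wells, 5 were higher and 2 lower, and the share of higher genes was that of all genes (21%, with 27.9% lower). Serpinh1 (7.12), the collagen chaperone, Hspb1 (6.06) and Hspb8 (5.13) were highest, and Cryab (-1.21) and Hspa4l (-1.35) lowest. In vessel over OPC wells 4 were higher and 4 lower, against 22% and 29.1% of all genes, with Hspb1 (6.80), Hspb8 (5.29) and Serpinh1 (4.43) highest and Hspa13 (-1.52) and Hspa4l (-1.60) lowest. In MOL over OPC wells 3 of 21 were higher and 1 lower, against 11.3% and 28.1%, namely Dnajb2 (3.58), Cryab (2.02) and Ahsa1 (1.06), against Hsf2 (-1.62). In fibroblast over MOL wells 5 of 24 were higher and 4 lower, against 29.9% and 22%, with Serpinh1 (6.33), Hspb1 (5.32) and Bag3 (3.66) highest and Cryab (-3.23) and Dnajb2 (-3.35) lowest. Serpinh1 (2.69) and Hspa13 (1.53) were the 2 higher in fibroblast than vessel wells, where none was lower, of 24 measured and against 21.6% and 21% of all genes. In COP over OPC wells Hspb8 (2.36), Dnajb2 (1.40) and Cryab (1.14) were higher and Bag3 (-3.21) lower, of 22 measured and against 10.3% and 23.2%. Cryab, the small chaperone alpha-B-crystallin, had medians of 353 CPM in OPC wells, 876 CPM in COP wells and 1518 CPM in MOL wells. Of 12 upstream regulators, such as Srf, Creb1 and the MAP kinases, 1 was higher and 3 lower in fibroblast over OPC wells, against 21% and 27.9% of all genes, with Mapk3 (2.47) highest and Srf at -1.07. In vessel over OPC wells 3 were higher and 6 lower, against 22% and 29.1%, with Mapk3 (3.14), Elk3 (2.72) and Creb1 (1.76) higher and Mapk9 (-1.39) and Mapk8 (-2.02) lowest. Fibroblast over MOL wells had 5 higher and 1 lower, against 29.9% and 22%, led by Elk3 (3.49), Mapk8 (2.28) and Elk1 (2.06), with Map2k1 at -1.61. Fibroblast over vessel wells had 4 higher and 3 lower, against 21.6% and 21%, led by Mapk8 (2.47), Mapk14 (1.69) and Mapk9 (1.58), with Creb1 at -1.06 and Elk3 at -2.41. Mapk3, which encodes ERK1, was the 1 regulator higher in MOL over OPC wells (2.74) and in COP over OPC wells (2.70), while Elk1 (-2.50 and -2.10 in the same order) and Elk3 (-3.17 and -2.03) were lower.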

How the data were processed

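Counts of reads per gene and well were used as deposited, whole numbers that the authors had not normalized. The submitters' processing notes name Subread 1.4.6-p5, featureCounts, TopHat2 2.1.1 and SAMtools 0.1.18, and as builds mm10 and GRCm38. Not given in the sources used here are the annotation, the strand setting, and how duplicate and multiply matching reads were treated. The counts carry no molecular identifiers, so reads cannot be taken as independent molecules. Wells with at least 50000 reads were kept (857 of 1152), which removed 295. Counts were summed over the wells of a class, scaled to CPM and compared as log2 ratios with 1 CPM added to each side. With all wells as 1 sample no test was possible. Genes with at least 10 CPM in either class form the background. Alternatives changed the marker threshold, depth and gene minimums, scaling, pseudocount, low-level filter, weighting of wells and the well sets; a depth window of 100000 to 400000 reads was added after seeing the data. Detection shares were taken after thinning to 50000 reads. In each comparison full values are given for the 4 highest and 2 lowest members and for Fos, Jun, Egr1 and Hspa1a, and from each other list the 3 highest and 2 lowest are named, except 1 gene that is not reported here. The members and lists were chosen with earlier results of these data known. Gene overlaps and exon lengths come from the GENCODE annotation of GRCm38, and the coordinates of the promoter windows from RefSeq. The scripts were tested on simulated data. Python 3.11.15, numpy 2.4.6, pandas 2.3.3, scipy 1.17.1 and matplotlib 3.10.9 were used.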

Additional observations from a re-analysis of the deposited data

Results flagged for a closer look

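Some members moved in opposite directions in different well sets; none of these differences was tested. Klf10 had a log2 ratio for fibroblast over OPC wells of 6.19 within 1025s_182s, -1.10 within 600s_182s and -2.13 within 613s, and for vessel over OPC wells of 6.02 (6.025), -1.49 and 1.401 in the same sets. The 19 OPC wells of 1025s_182s had 0 reads of Klf10 in 6332933, so the ratios in that set depend on the CPM added. With 3 reads over those wells taken as a floor, Klf10 was 152-fold higher in fibroblast wells and 135-fold higher in vessel wells. That floor treats reads as independent molecules, which they cannot be taken to be, so these folds are not lower limits. Kdm6b had a log2 ratio for fibroblast over OPC wells of 3.22 within 1025s_182s and -1.03 within 613s. For vessel over OPC wells it was 2.28 within 1025s_182s and -3.55 within 600s_182s, and for fibroblast over vessel wells 2.87 within 600s_182s and -1.94 within 613s. Socs3 had a log2 ratio for MOL over OPC wells of -2.91 within 1025s_182s and -3.50 within 600s_182s but 1.60 within 613s. For COP over OPC wells Zfp36 had 1.52 (1.525) within 600s_182s and -1.51 within 613s, and Hspa1a had 1.81 (1.815) and -1.64, with 9 COP wells in 613s.

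Signal was also present in wells outside the comparisons. The mean log2(CPM + 1) over the 33 genes had a median of 5.68 in 11 microglial wells and 5.32 in 13 choroid plexus wells. The wells under the read minimum, 295 in all, held Fos at 970.5 pooled CPM.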

How the results depend on the processing

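For each comparison the count of members called in its more frequent direction was recomputed, and it stayed within 1.5 times of the reported one under all alternatives except the following. With the mean of well log2(CPM + 1) in place of pooled counts, 17 members were lower in fibroblast than vessel wells, 5 in MOL than OPC wells and 8 in COP than OPC wells; within 600s_182s 14 were lower in MOL than OPC wells. With 10 CPM added in place of 1, the median 33-gene score was 6.05 in fibroblast, 7.16 in vessel, 4.76 in OPC, 4.49 in COP and 4.59 in MOL wells. The fibroblast score was 2.98 within 600s_182s. The vessel score was 5.62 in exclusive wells, 5.66 without 613s, 5.65 within 600s_182s and 5.65 in wells of 100000 to 400000 reads (5.65498), and the MOL score 2.06 within 1025s_182s. Called members that changed sign were, within 600s_182s, Egr2 for fibroblast over OPC (-1.72), over MOL (-1.31) and over vessel wells (-0.38), Atf3 (-0.19) and Nr4a1 (-0.97) for fibroblast over MOL wells, Nr4a2 (-0.92) and Klf10 (-1.49) for vessel over OPC wells and Klf10 (0.39) for fibroblast over vessel wells. Within 613s they were Klf10 for fibroblast over MOL (-0.30), Socs3 for MOL over OPC (1.60), and Btg2 (0.24) and Hspa1a (-1.64) for COP over OPC wells. Within 1025s_182s they were Klf10 for fibroblast over vessel (0.17) and MOL over OPC wells (3.08). Klf10 also changed for fibroblast over vessel wells without 613s (0.12) and at 100000 to 400000 reads (0.099), where vessel over OPC wells gave -0.0070, and Hspa1a for COP over OPC wells without 600s_182s (-1.19). The cause was not tested. Median-of-ratios scaling moved the all-gene median from -0.35 to -0.04 for MOL over OPC wells and from 0.17 to 0.00 for fibroblast over MOL wells and changed the calls of 3 members measured at the main scaling: Jund was no longer lower in COP than OPC wells (-0.82), and Btg2 (1.02) and Hsp90aa1 (1.29) became higher in MOL than OPC wells, where 6 were then higher in all against 3 reported. Counts in the less frequent direction, 1 to 3 as reported, also moved: the most were 3 lower in fibroblast than OPC wells (613s; without 1025s_182s), 2 lower in fibroblast than MOL wells (613s), 4 lower in vessel than OPC wells (600s_182s) and 6 higher in MOL than OPC wells (also without a low-level filter), and the fewest were 0 lower in fibroblast than OPC wells (without 613s), 0 higher in fibroblast than vessel wells (mean of well log2) and 1 higher in COP than OPC wells (613s). No paired analysis was possible because no label pairs wells. Depth limits members near 10 CPM, and with 1 sample no value has a replicate error.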

Other observations

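Microglial and choroid plexus wells, which entered no comparison, carried high levels of the members. Fos had 46.3 to 4703 CPM (median 2376) in 11 microglial wells and 827 to 3340 CPM (median 1587) in 13 choroid plexus wells. Atf3 had medians of 749 CPM in microglial wells and 145 CPM in choroid plexus wells, and Hspa1a 19.2 and 119.7 CPM in the same order. The 6 heat shock genes had a median mean log2(CPM + 1) of 7.49 in choroid plexus wells and 5.50 in microglial wells. Markers of another lineage were present in 9 of the 11 microglial and 11 of the 13 choroid plexus wells. In 11 astrocyte wells the mean over the 33 genes had a median of 2.51, and Fos had a median of 101 CPM (5.87 to 1186 CPM).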
